A study of Mus musculus with 9 samples.

Results

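The enzymes that hydroxylate and crosslink collagen were examined in RNA sequencing data of mouse dental papilla cells. The group is the 10 genes Lox, Loxl1, Loxl2, Loxl3 and Loxl4 (lysyl oxidases), Plod1 and Plod2 (lysyl hydroxylases) and P4ha1, P4ha2 and P4ha3 (prolyl 4-hydroxylase alpha subunits). They were taken by symbol from a table of whole-number counts with 53353 gene entries, and all 10 were found. Each had counts in all 9 libraries, the lowest being 6 counts, and all 10 passed the filter on low counts that left 15675 genes for testing.

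A collagen chain is modified in the endoplasmic reticulum before it is secreted. Prolyl 4-hydroxylase, an enzyme of alpha subunits and the beta subunit P4hb, hydroxylates prolines and so makes the triple helix stable at body temperature, while lysyl hydroxylases hydroxylate lysines, which later carry sugars or enter crosslinks. Both enzymes need iron, oxygen, 2-oxoglutarate and ascorbate. Outside the cell the copper-dependent lysyl oxidases oxidise lysines and hydroxylysines of collagen and elastin, and the products condense into the crosslinks that hold fibrils together. Dentin is largely type I collagen with mineral, and odontoblasts of the dental papilla secrete it.

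The cells came from the dental papilla of C57BL/6 mice, which is the mesenchyme of the tooth germ, and no age is stated for them. There are 3 groups of 3 libraries: primary cells, cells grown as a monolayer in plates, and spheres. The monolayer medium was EpiCM with 2% fetal bovine serum and 1% growth supplement, whereas spheres were seeded from cells at passage 2 on low-attachment plates in basal EpiCM with methylcellulose, so format and medium differ together. Culture lasted 8 days in both according to the source labels, but 14 days in the monolayer according to the growth protocol. No label ties the 3 libraries of a group to different animals or dishes. The p-values therefore reflect the scatter among libraries alone, and that scatter may be technical. The series title speaks of CD24a positive stem cells, but no sample label names a sort, and the series design lists a DPC P2 group in the place of the primary cells.

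Total counts were 35957376 to 52047254 per library. Levels are CPM (a library's counts scaled to 1e+06 with TMM factors), given for libraries 1 to 3 or as mean ± SD over n = 3 libraries. Of 10 dental papilla mesenchyme markers, 9 had counts in every group, with a summed 1438 to 1522 CPM in spheres, 1712 to 1788 CPM in monolayer and 1491 to 1525 CPM in primary cells; Dlx1, whose span lies wholly inside another entry, was listed at 0. Of the 9, spheres had more than monolayer for 3 and less for 6, among them Msx2 (3.14-fold higher) and Pax9 (6.67-fold lower), and more than primary cells for 4 and less for 5. Markers of other cell types moved with the culture groups too. Odontoblast markers, all 10 of which were higher in spheres than in either other group, summed to 27881 to 28681 CPM in spheres, 175 to 187 CPM in monolayer, and 356 to 359 CPM in primary cells, with Dspp at 0 outside spheres. Epithelial markers summed to 577 to 589, 2.96 to 4.10 and 226 to 231 CPM in that order, with 10 of the 10 tested higher in spheres than in monolayer (Amelx, which lies wholly inside another entry, was at 0 throughout, and Enam in monolayer). Against primary cells 3 of these were higher in spheres and 6 lower, with the keratin gene Krt5 24.0-fold and the cadherin gene Cdh1 9.25-fold lower, and the enamel matrix gene Ambn alone gave 524 ± 6.22 CPM of the sphere sum. Osteoblast and fibroblast markers, of which 9 of 10 were lower in spheres than in monolayer and all 10 lower than in primary cells, summed to 34808 to 37184, 136457 to 146759 and 62908 to 64226 CPM. Most of each sum was Col1a1 and Col1a2 (26987 and 8001 CPM in spheres). Against monolayer Runx2 did not pass and Alpl was only 1.11-fold lower. Ibsp, Bglap, Sp7 and Spp1, which osteoblasts express too, stood in the odontoblast list and were higher in spheres. The lists therefore do not separate odontoblasts from osteoblasts. Smooth muscle and pericyte markers were lower in 6 of 8 cases in spheres against monolayer and in 7 of 8 against primary cells, with sums of 502 to 545, 1299 to 1355 and 2277 to 2299 CPM. In spheres that sum was nearly all Cspg4 (521 ± 21.8 CPM, 3.13-fold higher than in monolayer), and the smooth muscle actin gene Acta2 was at 0.863 ± 0.278 CPM in spheres against 1158.5 ± 23.2 CPM in monolayer. Macrophage markers summed to at most 48.3 CPM, chondrocyte markers to at most 58.8 CPM and endothelial markers to at most 30.0 CPM in any library. In spheres against monolayer 7 of 9 tested macrophage markers were higher and 2 lower. Of 5 tested chondrocyte markers 1 was higher and 4 lower, and of 6 tested endothelial markers 2 were higher and 3 lower. The chondrocyte sum in spheres was nearly all Sox9 (57.05 ± 1.34 CPM). The part of these cell type differences in the results was not tested, and in bulk RNA fewer cells of a type and less RNA per cell cannot be told apart.

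Spheres held less RNA of all lysyl oxidases and of P4ha3 than either other group, and more of P4ha1 and Plod2. Monolayer held the most of each lysyl oxidase and of P4ha3. Differences were tested with edgeR's quasi-likelihood test, with p-values adjusted by Benjamini-Hochberg over all 15675 genes and a threshold of 0.05. Of the 10 enzyme genes, 7 were lower in spheres than in monolayer and 2 higher, and of all genes tested 37.7% were lower and 40.7% higher. Tested against a change of 2-fold, 2 members were higher and 6 lower, where 12.6% and 15.4% of all genes were. In spheres against primary cells 2 were higher and 7 lower, beside 38.9% and 40.6% of all genes, and beyond 2-fold 1 was higher (Plod2) and 6 lower, beside 11.3% and 16.5%. The 6 include Loxl1 (adjusted p = 0.029), which lost that call without primary library 3 (0.06), sphere library 1 (0.15) or sphere library 2 (0.055), and by DESeq2, where Loxl4 lost it too (0.26 and 0.13). In monolayer against primary cells 7 were higher and 2 lower, beside 34.4% and 36.9% of all genes, and beyond 2-fold Loxl3 and P4ha3 were higher and none lower, beside 6.18% and 7.82%. The median log2 change of the members was -1.82, -1.13 and 0.70 in the 3 comparisons, where that of all genes was 0.04, -0.02 and -0.03. The comparisons share their groups pairwise, so their counts do not add to each other. Scaling to total counts shifted all genes by 0.30 in spheres against monolayer and by -0.30 in monolayer against primary cells, and of the members it turned the direction of Plod1 and P4ha2 in the first and of Plod1 and Plod2 in the second.

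All 5 lysyl oxidases were lowest in spheres and highest in monolayer. Lox, the founding member of the family and the main crosslinking enzyme of collagen and elastin (chromosome 18, 52516069 to 52529867, minus strand, GRCm38), was at 561, 568 and 573 CPM in the sphere libraries. It reached 4557, 4640 and 4649 CPM in monolayer and 2642, 2659 and 2641 CPM in primary cells. The 3 groups did not overlap, and the spheres held 8.13-fold less than monolayer (log2 change -3.02, SE 0.027, adjusted p = 1.1e-32 by edgeR's quasi-likelihood test) and 4.67-fold less than primary cells (adjusted p = 5.3e-30). Monolayer was 1.74-fold above primary cells (log2 change 0.80, adjusted p = 4.3e-20).

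Loxl3, a lysyl oxidase-like enzyme with scavenger receptor domains that is needed for palate and spine formation in mice (chromosome 6, 83034173 to 83052562, plus strand), changed the most within the family. Its values were 21.2, 20.8 and 22.4 CPM in spheres, 533, 506 and 541 CPM in monolayer, and 134, 133 and 134 CPM in primary cells. Every sphere library was thus below every primary library, and every primary library below every monolayer library. The spheres were 24.5-fold below monolayer (log2 change -4.62, SE 0.041, adjusted p = 1.1e-32) and 6.23-fold below primary cells (adjusted p = 1.3e-27), and monolayer was 3.94-fold above primary cells (adjusted p = 2.5e-25). Htra2, a gene on the opposite strand, and a microRNA gene cover 7.4% of the Loxl3 span.

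Loxl2, which crosslinks type IV collagen of basement membranes among other substrates (chromosome 14, 69609068 to 69695834, plus strand), had 43.6, 43.0 and 39.9 CPM in spheres. Monolayer libraries had 284, 292 and 268 CPM and primary libraries 145, 139 and 141 CPM, again without overlap. It was 6.67-fold lower in spheres than in monolayer (log2 change -2.74, adjusted p = 9.9e-28) and 3.36-fold lower than in primary cells (adjusted p = 2.3e-23), with monolayer 1.99-fold above primary cells (adjusted p = 3.5e-18). Entries that overlap it cover 85.6% of its span, chiefly the predicted gene Gm27177 on the opposite strand. In this table protein-coding genes lying wholly inside another entry have at most 3 counts (775 of 775 inside genes of the opposite strand), and how many Loxl2 reads of the covered stretch were counted was not tested.

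Loxl1, which serves the renewal of elastic fibres (chromosome 9, 58287738 to 58313186, minus strand), was at 127, 135 and 141 CPM in spheres, 490.1, 430 and 516 CPM in monolayer and 289, 287 and 294 CPM in primary cells. Loxl4, the least abundant lysyl oxidase here (chromosome 19, 42593982 to 42612813, minus strand), was at 14.7, 15.3 and 15.3 CPM in spheres, 52.9, 51.5 and 55.3 CPM in monolayer and 33.5, 33.8 and 32.8 CPM in primary cells. Both were lowest in spheres and highest in monolayer, and in neither did any groups overlap. Loxl1 was 3.57-fold and Loxl4 3.52-fold lower in spheres than in monolayer (log2 change -1.83, adjusted p = 2.2e-14, and -1.81, adjusted p = 1.0e-21). Against primary cells the spheres were 2.16-fold lower for Loxl1 and 2.20-fold lower for Loxl4 (adjusted p = 1.6e-11 and 5.6e-17).

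**Figure D1:**
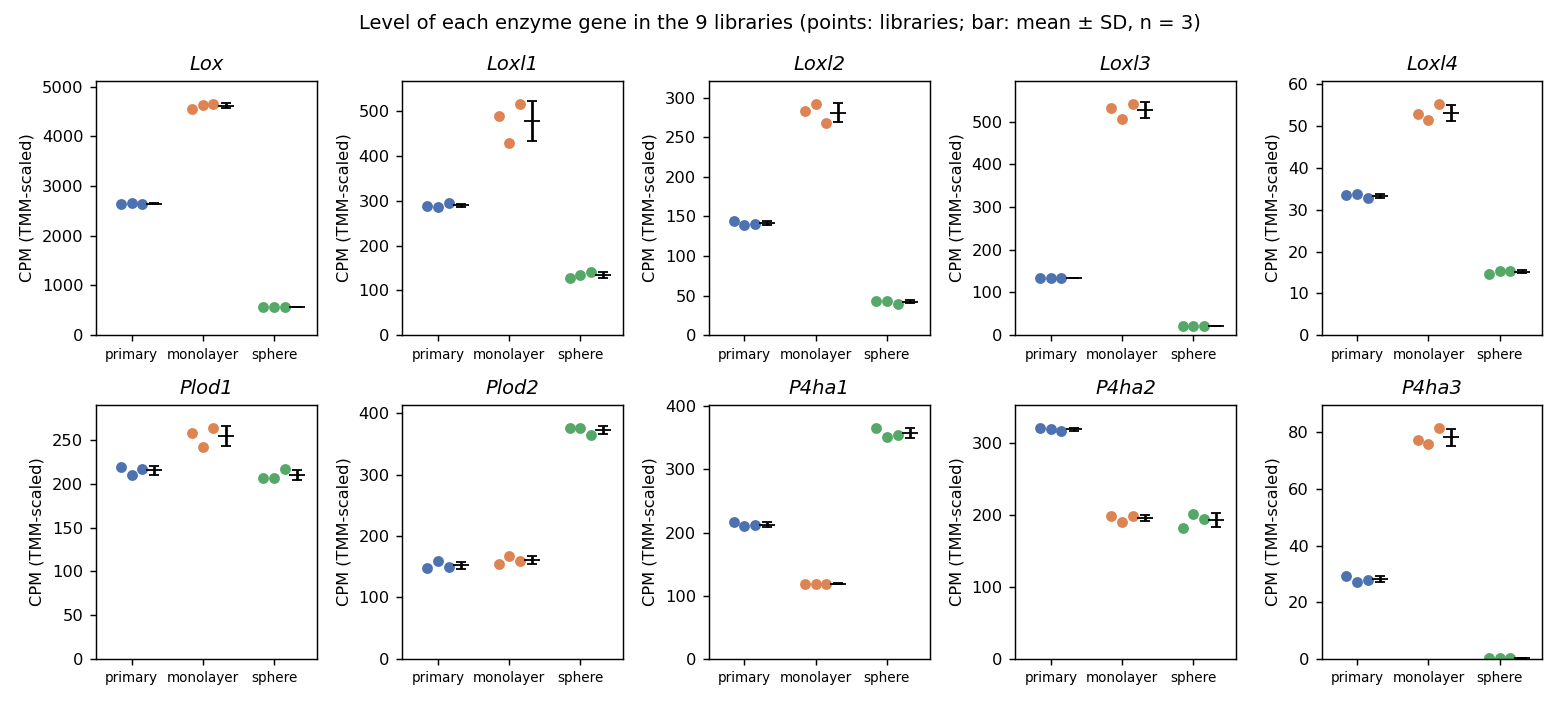
CPM of the 10 enzyme genes (y axis, from 0, a scale for each gene) in the 3 groups (x axis); each point is 1 library and the black bar is the mean ± SD over 3 libraries. The 5 lysyl oxidases and P4ha3 were lowest in spheres, Plod2 and P4ha1 highest there (P4ha1 at 352 to 366 CPM), and P4ha2 highest in primary cells (318 to 322 CPM).

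The lysyl hydroxylases parted from each other. Plod2, which encodes the enzyme that hydroxylates lysines of the collagen telopeptides and so sets the type of crosslink formed (chromosome 9, 92542223 to 92608428, plus strand), was at 376, 377 and 365 CPM in spheres. It was at 155, 168 and 160 CPM in monolayer and at 149, 159 and 150 CPM in primary cells. The spheres stood above all other libraries, 2.32-fold over monolayer (log2 change 1.21, SE 0.036, adjusted p = 3.5e-21) and 2.44-fold over primary cells (log2 change 1.29, adjusted p = 9.6e-22), while monolayer and primary libraries overlapped (log2 change 0.08, 95% interval 0.00 to 0.15, adjusted p = 0.058). That last comparison depended on the scaling: monolayer was higher with the DESeq2 test (adjusted p = 0.0051) and lower when libraries were scaled to total counts (log2 change -0.22, adjusted p = 1.0e-05). Leaving out 1 library gave a call to the same comparison 3 times, with primary library 2 (adjusted p = 0.023), monolayer library 1 (0.029) or sphere library 1 (0.05, just under the threshold) removed.

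Plod1, whose product hydroxylates lysines in the helical part of the chain (chromosome 4, 147909753 to 147936767, minus strand), moved little. It was at 207, 207 and 217 CPM in spheres, 258, 242 and 264 CPM in monolayer and 219.5, 209.9 and 217 CPM in primary cells. Spheres and primary cells overlapped (log2 change -0.04, 95% interval -0.11 to 0.04, adjusted p = 0.33). Monolayer lay above both, by 1.21-fold over spheres (adjusted p = 8.2e-08) and by 1.18-fold over primary cells (adjusted p = 1.2e-06). These small differences turned with the scaling: by total counts the log2 change was 0.03 for spheres against monolayer (adjusted p = 0.45) and -0.06 for monolayer against primary cells (adjusted p = 0.13). The ratio of Plod2 to Plod1 per kilobase of exon, which no scaling of a library touches, was 2.28, 2.28 and 2.12 in spheres against 0.756, 0.869 and 0.758 in monolayer and 0.850, 0.951 and 0.865 in primary cells.

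The 3 prolyl 4-hydroxylase alpha subunits each followed a course of their own. P4ha1, the main catalytic subunit of most tissues (chromosome 10, 59323296 to 59373304, plus strand), was at 366, 352 and 355 CPM in spheres. It was at 119, 119 and 118 CPM in monolayer and at 217, 209.7 and 212 CPM in primary cells. The groups did not overlap, and spheres exceeded monolayer 3.01-fold (log2 change 1.59, SE 0.032, adjusted p = 7.0e-25) and primary cells 1.68-fold (log2 change 0.75, adjusted p = 8.6e-18). Monolayer was 1.79-fold below primary cells (adjusted p = 3.5e-18).

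P4ha2, the alternative subunit that is prominent in cartilage and bone cells (chromosome 11, 54100095 to 54131665, plus strand), was at 183, 202 and 195 CPM in spheres, 198, 191 and 199 CPM in monolayer and 322, 319.9 and 318 CPM in primary cells. Both cultures lay below primary cells, spheres by 1.66-fold (adjusted p = 2.0e-16) and monolayer by 1.63-fold (adjusted p = 8.9e-16). Spheres and monolayer overlapped, with a log2 change of -0.02 (95% interval -0.09 to 0.05, adjusted p = 0.57). Scaled to total counts, P4ha2 was higher in spheres (log2 change 0.28, adjusted p = 2.6e-08), and without sphere library 1 the change was 0.02 (adjusted p = 0.64).

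P4ha3, the third alpha subunit, found at low levels in most tissues (chromosome 7, 100285520 to 100319699, plus strand), was nearly absent from spheres. Its counts there were 6, 9 and 8, which is 0.154, 0.175 and 0.147 CPM. It was at 77.3, 75.7 and 81.6 CPM in monolayer and at 29.2, 27.2 and 27.8 CPM in primary cells. The spheres were 492-fold below monolayer (log2 change -8.92, SE 0.10, adjusted p = 2.7e-30) and 177-fold below primary cells (log2 change -7.44, SE 0.12, adjusted p = 3.2e-27), and monolayer was 2.79-fold above primary cells (adjusted p = 9.8e-20). Within a library the ratio of P4ha3 to P4ha1 per kilobase of exon was 0.853, 0.833 and 0.905 in monolayer and 0.000553, 0.000655 and 0.000543 in spheres.

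The stretches just before the start sites of these subunits are shown because the 3 genes, which encode alternative subunits of 1 enzyme, differed in their course over the groups. RefSeq promoter windows (GRCm38.p6, 250 bases before to 50 after the start) were matched for 5 of the 10 genes: Loxl4, Plod1, P4ha1, P4ha2 and P4ha3. Lox was left out of this matching beforehand, so whether it has a window is not reported. Each line gives the 250 bases before the start on the plus strand, for P4ha1 at chr10:59323046-59323295, for P4ha2 at chr11:54100674-54100923 (the RefSeq start lies inside the counted span) and for P4ha3 at chr7:100285270-100285519. Capitals mark ACGTG or GCGTG on either strand (CACGT and CACGC where the minus strand holds them), the core of hypoxia response elements.
P4ha1: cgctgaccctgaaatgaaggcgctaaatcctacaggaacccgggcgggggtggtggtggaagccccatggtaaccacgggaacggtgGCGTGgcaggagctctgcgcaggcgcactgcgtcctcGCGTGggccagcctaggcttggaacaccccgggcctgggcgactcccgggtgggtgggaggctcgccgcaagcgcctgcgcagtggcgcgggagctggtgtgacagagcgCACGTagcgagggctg
P4ha2: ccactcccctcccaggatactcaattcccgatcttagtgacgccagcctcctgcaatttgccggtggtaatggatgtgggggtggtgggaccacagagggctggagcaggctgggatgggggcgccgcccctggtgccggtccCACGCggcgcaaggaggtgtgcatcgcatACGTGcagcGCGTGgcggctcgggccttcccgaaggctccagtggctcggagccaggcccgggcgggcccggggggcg
P4ha3: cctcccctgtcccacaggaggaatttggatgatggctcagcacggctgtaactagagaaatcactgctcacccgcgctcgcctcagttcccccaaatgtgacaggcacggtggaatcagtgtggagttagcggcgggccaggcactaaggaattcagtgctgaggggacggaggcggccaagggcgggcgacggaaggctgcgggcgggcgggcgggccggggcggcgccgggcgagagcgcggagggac
In the whole window P4ha1 held these letters 3 times, at -163 to -159, -126 to -122 and -16 to -12, and P4ha2 held them 4 times, at -107 to -103, -78 to -74, -69 to -65 and 11 to 15. P4ha3 held neither. Loxl4 held GCGTG once and Plod1 held it 2 times. Of all 32851 promoter windows of the same length, 43.8% held 1 or both. The TEAD core CATTCC was in none of the 5 windows (14.7% of all), and TATAAA was in those of P4ha1 and Plod1 (13.6% of all). In P4ha1 it lay after the start, at 40 to 45, and in Plod1 at -232 to -227 on the opposite strand to the gene. These are descriptions of letters, not of bound sites.

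**Figure D2:**
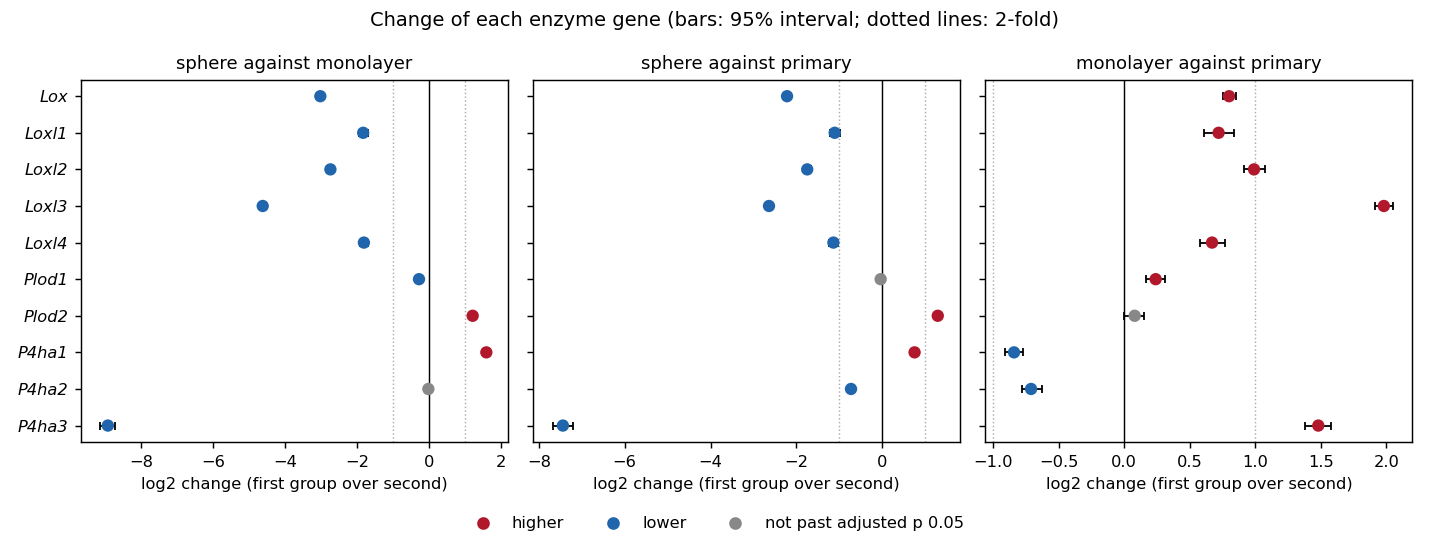
Fitted log2 change of the 10 enzyme genes (x axis) in the 3 comparisons; points are genes, bars the 95% interval, dotted lines a 2-fold change, and grey a gene not past an adjusted p of 0.05. P4ha3 stood lowest in both sphere comparisons (-8.92 and -7.44), while Plod2 and P4ha1 lay above 0 in both.

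Levels of different genes were compared per kilobase of exon. Lox led in every group, at 554 ± 2.18 CPM per kilobase in primary cells, 966 ± 10.6 in the monolayer libraries and 119 ± 1.27 in the spheres. In primary cells Loxl1 followed (88.1 ± 1.12), then P4ha1 and P4ha2, which overlapped at 51.7 and 51.3, then Plod1, Loxl3 and Plod2 (the last pair overlapping), Loxl2, P4ha3 and Loxl4. In monolayer the lysyl oxidases Lox, Loxl1, Loxl3 and Loxl2 took the first 4 places, ahead of Plod1 and of P4ha2, Plod2 and P4ha1, whose libraries overlapped with the next in that order at 31.4, 29.8 and 28.9. In spheres the order after Lox was P4ha1 (86.9 ± 1.79), Plod2 (69.1 ± 1.2) and Loxl1 (40.7 ± 2.18), then Plod1 and P4ha2, which overlapped, and P4ha3 was last at 0.0507 ± 0.0047. A setting added after the values were seen divided the same CPM by only the exon length outside other entries. Loxl2 then came to 44.9, 89.2 and 13.4 CPM per kilobase in primary cells, monolayer and spheres. Loxl3 came to 159 ± 5.58 in monolayer, beside 145 ± 13.4 for Loxl1. The counts themselves were not restricted, so these values hold only if no reads of the covered exon were counted, which was not tested.

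The share of each gene in its family was computed in every library. Lox made up 78.6% ± 0.21 of the summed lysyl oxidase level per kilobase in primary cells. Its share was 74.9% ± 0.99 in monolayer and 67.7% ± 0.56 in spheres. Loxl1 took 23.2% ± 0.81 in spheres against 11.2% ± 0.92 in monolayer, and Loxl3 2.66% ± 0.077 against 8.86% ± 0.23. Plod2 was 69.0% ± 0.94 of the pair of lysyl hydroxylases in spheres, 44.2% ± 2.0 in monolayer and 47.0% ± 1.5 in primary cells. P4ha1 was 73.7% ± 1.3 of the alpha subunits in spheres, 33.9% ± 0.70 in monolayer and 46.2% ± 0.22 in primary cells, while P4ha3 was 0.043% ± 0.004, 29.3% ± 0.68 and 8.0% ± 0.20. Within-library ratios between members were tested with an exact two-sided permutation test of 3 against 3 libraries, whose smallest possible p is 0.1, so that none of the ratios could pass 0.05 and none did. Over the 15 tests of 5 ratios the ratio of P4ha1 to P4ha2, 2.82 ± 0.20 in spheres, 0.92 ± 0.023 in monolayer and 1.01 ± 0.014 in primary cells, gave that p in each comparison (0.115 adjusted). So did Loxl3 over Lox and P4ha3 over P4ha1. Plod2 over Plod1 and Loxl1 over Lox gave it in both sphere comparisons. For monolayer against primary cells their exact permutation p was 0.3 and 0.4 (0.321 and 0.4 adjusted). Since nearly all tests gave the smallest possible p, it sets no ratio apart.

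**Figure D3:**
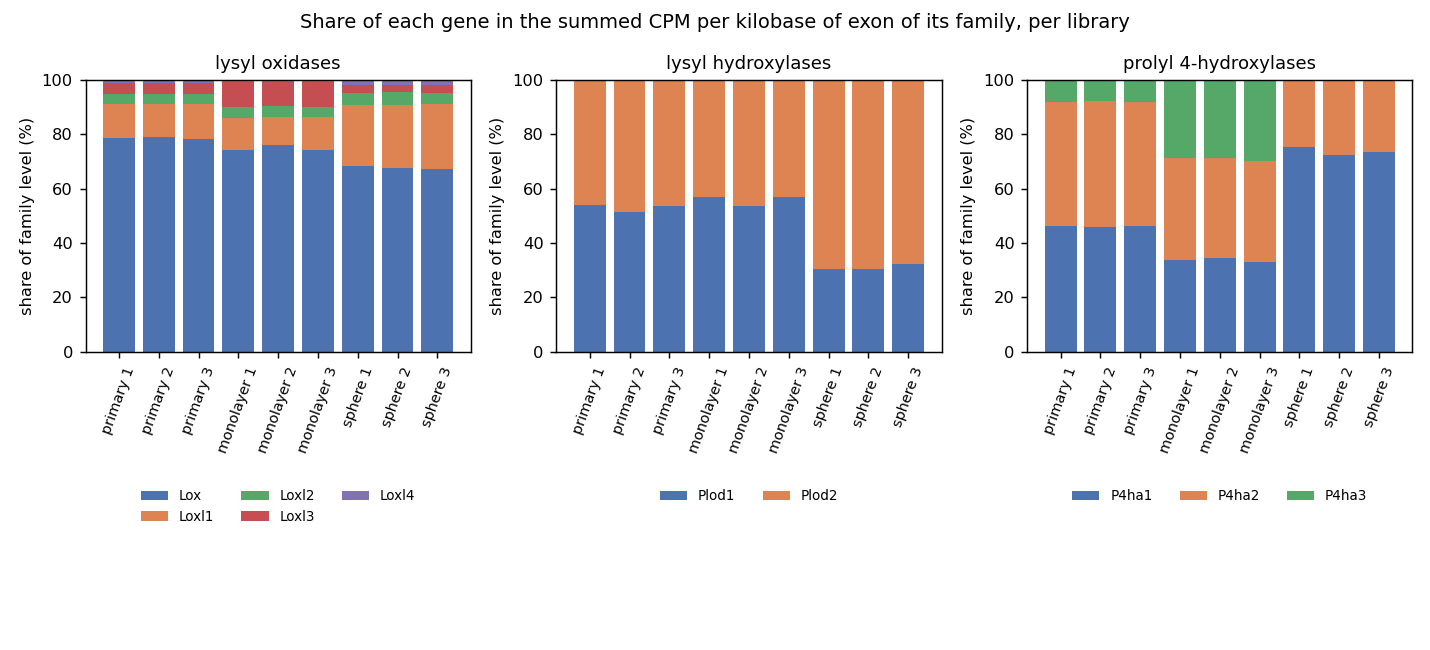
Share of each gene in its family (y axis, percent of the summed CPM per kilobase of exon) in each of the 9 libraries (x axis); the colours are the genes of the family. Plod2 held 67.9 to 69.6% and P4ha1 72.5 to 75.2% in the sphere libraries, and P4ha3 28.8 to 30.0% in the monolayer libraries.

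The substrates of these enzymes changed too. Col1a1 and Col1a2, which encode the chains of type I collagen, were at 26987 ± 934 and 8001 ± 255 CPM in spheres, 87115 ± 4520 and 46423 ± 880 CPM in monolayer, and 41524 ± 780 and 15382 ± 30.9 CPM in primary cells. Col3a1, the type III chain, was 36.9-fold lower in spheres than in monolayer (adjusted p = 2.5e-36). Set against the sum of these 3 collagens per kilobase, the lysyl oxidases came to 3.73, 3.66 and 3.62 per 100 units of collagen in spheres, 7.09, 7.37 and 6.94 in monolayer and 8.38, 8.43 and 8.19 in primary cells. For both kinds of hydroxylase the ratio was highest in spheres. Lysyl hydroxylases (Plod1 and Plod2 only) were at 2.17, 2.09 and 2.02 per 100 units in spheres against 0.369, 0.386 and 0.364 in monolayer, and prolyl 4-hydroxylases at 2.56, 2.46 and 2.38 against 0.471, 0.484 and 0.459. Primary cells lay between, at 0.711 ± 0.013 and 1.32 ± 0.03, and no groups overlapped in any of the 3 ratios. The collagen sum itself was 4616 to 4942 CPM per kilobase in spheres, 17328 to 18868 in monolayer and 8384 to 8612 in primary cells. The summed prolyl 4-hydroxylase level was 118 ± 0.341 CPM per kilobase in spheres, 85.3 ± 1.4 in monolayer and 112 ± 1.45 in primary cells. That of Plod1 and Plod2 was 100.2 ± 0.37, 67.5 ± 0.999 and 60.2 ± 0.306. Plod3, a lysyl hydroxylase that is not a member, is left out of that sum and was lowest in spheres. It was at 147 ± 1.78, 246 ± 10.5 and 221 ± 3.16 CPM in the same order. For both kinds of hydroxylase the ratio to collagen differed more between groups than the enzyme sum did. For the lysyl oxidases it differed less. Their sum was 175.5 ± 3.32 CPM per kilobase in spheres, 1290 ± 17.2 in monolayer and 705 ± 0.979 in primary cells. Single lysyl oxidases did not share 1 course in the ratio to collagen. Loxl1 was at 0.851 ± 0.017 per 100 in spheres and 0.801 ± 0.042 in monolayer, whereas Loxl3 was at 0.0974 ± 0.0028 and 0.632 ± 0.0082.

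**Figure D4:**
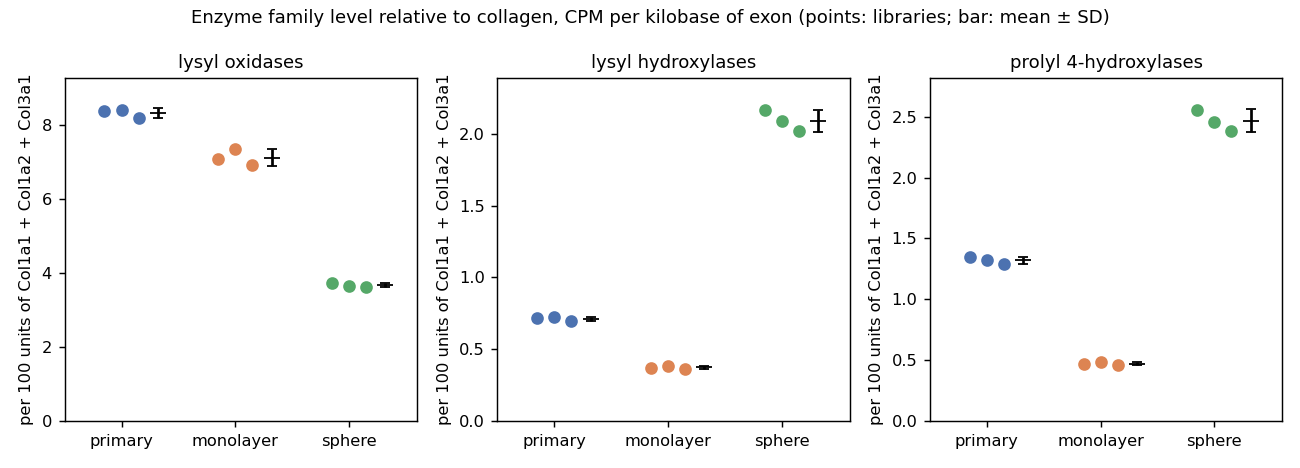
Summed level of each enzyme family per 100 units of Col1a1, Col1a2 and Col3a1 (y axis, both in CPM per kilobase of exon) in the 3 groups (x axis); points are libraries and the bar is the mean ± SD. Spheres were lowest for lysyl oxidases (3.67 ± 0.056) and highest for both kinds of hydroxylase (2.09 ± 0.078 and 2.47 ± 0.092). The lysyl hydroxylase sum holds Plod1 and Plod2 and leaves out Plod3.

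Other genes of the pathway were read from lists of collagen modification, secretion and processing, of their substrates and cofactors, and of the hypoxia response. Over the 82 tested genes of these lists 37 were higher and 40 lower in spheres against monolayer, 33 and 41 in spheres against primary cells, and 41 and 35 in monolayer against primary cells. Of all genes 40.7% and 37.7%, 38.9% and 40.6%, and 34.4% and 36.9% were, in the same order. Of 10 further collagen modifying enzymes and partners, 7 were lower and 2 higher in spheres than in monolayer (median log2 change -0.42). P4hb, the beta subunit that pairs with all 3 P4ha products and is named for that reason, was 1.22-fold lower (929 ± 10.5 against 1137 ± 13.7 CPM, adjusted p = 1.9e-10). Plod3, the third lysyl hydroxylase, which also transfers sugars, was 1.68-fold lower (147 ± 1.78 against 246 ± 10.5 CPM, adjusted p = 7.7e-17, 11.5% of its span covered by other genes). The prolyl 3-hydroxylases split: P3h3 was 2.74-fold and P3h1 1.52-fold lower, whereas P3h2 rose from 0.333 ± 0.141 to 63.9 ± 3.3 CPM, 192-fold (adjusted p = 1.9e-27). For Colgalt2, a collagen galactosyltransferase, the test was not passed, with 0.185 CPM in spheres and 0.161 CPM in the monolayer (adjusted p = 0.72). Against primary cells 2 of the 10 were higher, 5 lower and 3 did not pass, with P3h2 8.59-fold higher.

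Of 12 tested chaperones and export factors 9 were lower and 3 higher in spheres than in monolayer (median -0.62). Serpinh1, the collagen chaperone Hsp47, was 1.62-fold lower at 1828 ± 74.1 CPM (adjusted p = 7.2e-18), and the prolyl isomerases Fkbp9 and Fkbp14 were 2.68-fold and 2.40-fold lower. The propeptide processing list moved the other way in 5 of 7 cases. Adamts14 and Adamts2, proteases that remove the amino-terminal propeptide, were 9.31-fold and 2.47-fold higher at 492 ± 23.2 and 1637 ± 54.7 CPM (adjusted p = 4.1e-24 and 3.6e-23). Genes for removal of the carboxy-terminal propeptide split. The protease gene Tll1 was 27.0-fold lower (0.917 against 24.8 CPM) and the enhancer gene Pcolce2 22.1-fold lower (1.1 against 24.3 CPM). The protease gene Bmp1 was 1.63-fold higher (1066 ± 29.7 against 654 ± 17.1 CPM). The enhancer gene Pcolce was 1.41-fold higher (1775 ± 79.7 against 1262 ± 58.0 CPM). Against primary cells the same list had 5 higher and 2 lower, with Adamts14 20.8-fold and Bmp1, the main carboxy-terminal protease, 2.11-fold higher.

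The fibrillar collagen list had 9 of 11 genes lower and 2 higher in spheres than in monolayer (median -2.35). Col11a1 was 164-fold lower, from 2427 ± 10.7 to 14.8 ± 0.172 CPM, and its partner chain gene Col11a2 rose 734-fold from 1.37 ± 0.253 to 1009.5 ± 33.4 CPM (adjusted p = 1.6e-37 and 1.4e-29). Of 9 elastic fibre genes 8 were lower and 1 higher (median -3.56). Fbln5, which helps lysyl oxidases reach elastin, was 26.7-fold lower and the fibrillin gene Fbn1 16.2-fold lower, whereas Eln, the elastin gene, rose from 1.28 ± 0.228 to 86.0 ± 3.3 CPM (67.4-fold, adjusted p = 8.3e-29).

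Genes of cofactor supply were mixed. Of 4 tested copper supply genes spheres had more than monolayer for 2 and less for 1. Atp7a, the pump that loads copper into secreted enzymes, had 63.6 ± 3.08 CPM in spheres beside 61.9 ± 3.08 CPM in monolayer (adjusted p = 0.46), and it was 1.73-fold higher in spheres than in primary cells (adjusted p = 2.7e-14). The copper chaperone gene Atox1 was 1.33-fold higher in spheres than in monolayer (adjusted p = 1.8e-08), and Slc31a2, which encodes a transporter-like protein, 2.58-fold lower. Slc23a2, the ascorbate transporter of most cells, was at 290.2 ± 6.56 CPM in spheres, 44.6 ± 2.65 CPM in monolayer and 40.1 ± 0.637 CPM in primary cells, 6.51-fold and 7.23-fold higher (adjusted p = 8.7e-28 and 3.5e-28), and Slc23a1 did not pass against monolayer (adjusted p = 0.078). Of the 4 tested transglutaminases, which crosslink proteins by another bond, none had a group mean above 9.88 ± 0.555 CPM (Tgm2 in monolayer). In spheres against monolayer 2 were higher, Tgm1 at 0.607 against 0.0499 CPM (adjusted p = 3.0e-05) and Tgm3 at 1.26 against 0.0607 CPM (adjusted p = 2.3e-08). F13a1 did not pass (adjusted p = 0.11), and Tgm2 was 1.92-fold lower (adjusted p = 6.4e-09). Other genes cover 88.2% of the Tgm1 span and 52.9% of the Tgm2 span.

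The 5 members P4ha1, P4ha2, Plod2, Lox and Loxl2 are known targets of hypoxia-inducible factors. Of 18 tested hypoxia response genes 16 were above monolayer and 2 below it in spheres, beside 40.7% and 37.7% of all genes (median log2 change 1.04). The lactate dehydrogenase gene Ldha was 2.54-fold, the phosphoglycerate kinase gene Pgk1 2.09-fold and the stress response gene Ddit4 3.62-fold higher (adjusted p = 4.1e-24, 8.0e-21 and 1.8e-23). The 2 below were Arnt (1.58-fold) and Car9 (3.83-fold, at 0.0991 against 0.380 CPM). In the same comparison Lox and Loxl2 were lower, P4ha2 did not pass and P4ha1 and Plod2 were higher. Against primary cells the list had 8 higher and 9 lower, beside 38.9% and 40.6% of all genes (median -0.17). Ldha was 1.45-fold and Ddit4 2.21-fold higher there, and Pgk1 1.22-fold lower. Of the 5 members P4ha1 and Plod2 were higher there, and Lox, Loxl2 and P4ha2 lower. In monolayer against primary cells 16 hypoxia response genes were lower and 2 higher, beside 36.9% and 34.4% of all genes (median -0.91). There P4ha1 and P4ha2 were lower, Lox and Loxl2 higher, and Plod2 did not pass. The hydroxylases that act on the hypoxia-inducible factors were higher in spheres than in monolayer for 3 of 5 genes and lower for 1, beside 40.7% and 37.7% of all genes. Egln1 was 2.01-fold higher. Egln3 was 32.3-fold higher, at 7.30 ± 0.39 against 0.226 ± 0.127 CPM. P4htm did not pass (adjusted p = 0.16). Against primary cells, at 6.45 ± 0.71 CPM, Egln3 did not pass (adjusted p = 0.16). Hif1a and Adm, both wholly inside other entries, were listed at 0 and give no level.

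**Figure D5:**
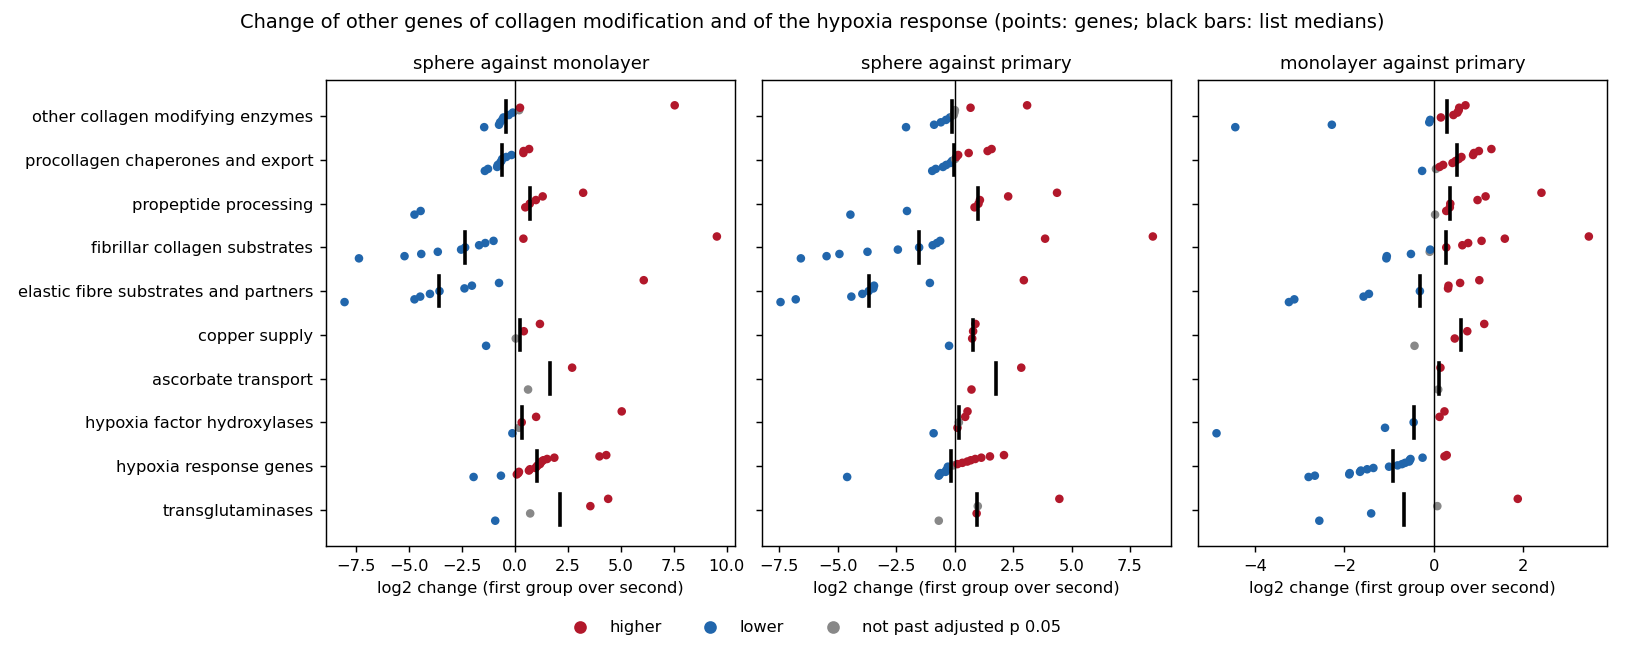
Fitted log2 change (x axis) of the genes of 10 lists (y axis) in the 3 comparisons; points are genes, coloured by direction or grey where the adjusted p was not under 0.05, and black bars are list medians. Fibrillar collagen and elastic fibre genes lay mostly below 0 in both sphere comparisons, and hypoxia response genes had medians of 1.04, -0.17 and -0.91.

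For the member of each family with the highest CPM averaged over the 9 libraries, without regard to length (Lox, Plod2 and P4ha2; per kilobase of exon P4ha1 was above P4ha2 in spheres, below it in monolayer and overlapped with it in primary cells), the 3 genes of nearest pattern were found among 8786 genes with a mean of at least 10 CPM, by the root mean square difference of mean-centred log2 CPM over the 9 libraries. For Lox these were Adamts7 (0.0655), Pla2g16 (0.0687) and Dock5 (0.0859). For Plod2 they were Socs6 (0.0445), Slc39a14 (0.0475) and Hacd3 (0.0477), and for P4ha2 they were Rps26 (0.0317), Fbf1 (0.0387) and Rpl34 (0.0401). Adamts7 was at 7.68 ± 0.51, 58.9 ± 2.35 and 34.5 ± 0.431 CPM in spheres, monolayer and primary cells, and Slc39a14 at 294 ± 1.87, 125 ± 1.16 and 124 ± 1.12 CPM.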

How the data were processed

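The authors deposited raw counts, 1 whole number for each gene and each of 9 libraries, and every value here starts from these counts. Per the submitters' processing notes, fastp 0.20.0, HISAT2 2.1.0 and featureCounts 1.6.0 were used with build GRCm38; neither the annotation release nor the strand setting is stated there. The stated length equals the whole span for 53245 of 53245 single-interval entries, so reads in introns may be counted and levels per kilobase of exon are approximate. Groups came from sample titles. The members, lists and tests were chosen with earlier results of these data known.

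The counts were analysed with edgeR 4.0.16 (R 4.3.3). Genes were kept by filterByExpr at a minimum count of 10 and libraries scaled by TMM, followed by 1 quasi-likelihood fit of group means over 9 libraries (glmQLFTest, and glmTreat for 2-fold), Benjamini-Hochberg adjustment over all 15675 genes, two-sided, threshold 0.05. An SE is the log2 change over the square root of F. Exon lengths are unions of GENCODE M21 exons, and 9 of 10 members have identical coordinates there. The tests were tried on simulated counts drawn with the scatter among these same libraries. That trial cannot show how the tests behave for differences between animals. Named genes are the members, up to 4 genes per list with the smallest adjusted p in a comparison, those not passing, and Col1a1, Col1a2 and Col3a1. P4hb, Bmp1 and Pcolce were named for their role, and single cell type markers were named after their values were seen. Alternatives were DESeq2 1.42.0, RLE factors, total counts, no filter, pairwise fits, a replicate block, leaving out each library, and leaving out overlapped genes. Precision differed between members. The SE ran from 0.025 for Lox in monolayer against primary cells to 0.12 for P4ha3 in spheres against primary cells. The biological coefficient of variation was 4%. Of 88 other list genes 87 were found.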

Additional observations from a re-analysis of the deposited data

How the results depend on the processing

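The 30 member changes were recomputed under 15 alternatives each, and 439 of 450 values kept their direction and side of the threshold; 26 of the 30 changes did so in every alternative run. Directions turned for Plod1 in spheres against monolayer (log2 change 0.03) and in monolayer against primary cells (-0.06), for Plod2 in monolayer against primary cells (-0.22) and for P4ha2 in spheres against monolayer (0.28), all with total count scaling, and for P4ha2 without sphere replicate 1 (0.02; leaving out each library in turn gave -0.05 to 0.02). By construction total count scaling moves all genes together. Scaled so, the count of members lower beyond 2-fold in monolayer against primary cells went from 0 to 1 (P4ha1). Leaving out the 3 members partly covered by other genes left 1 higher in spheres against monolayer (1 beyond 2-fold), 1 higher against primary cells (0 beyond 2-fold) and 1 higher beyond 2-fold in monolayer against primary cells. The counts of higher and lower pathway genes went from 37 and 40 to 20 and 18 in spheres against monolayer, from 33 and 41 to 17 and 19 against primary cells, and from 41 and 35 to 20 and 18 in monolayer against primary cells; fewer genes enter these counts by construction. The share of Lox was 89.7, 86.2 and 84.2% (primary, monolayer, spheres) per kilobase of gene span. It was 75.4, 70.4 and 64.9% per kilobase of exon outside other genes, where only the length changed and all counts were kept. That of Plod2 was 22.4, 20.5 and 42.0% by span, and 48.7% in primary cells and 70.4% in spheres by the length of exon outside other genes. That of P4ha2 was 66.6, 57.1 and 46.1% by span. P4ha1, at 28.0, 21.9 and 53.9% by span, was still highest in spheres. Leaving out 1 library at a time kept all member counts within 1.5 times of those reported. Replicate numbers are shared between groups, but same-numbered libraries did not deviate together (correlations of -0.01 to 0.026, against -0.032 to 0.038 for different numbers), and 9 of 18 comparisons found a library most like its own number. The replicate block left the count of members higher and lower at 2 and 7 in both sphere comparisons and gave 8 and 2 in monolayer against primary cells, with Plod2 at an adjusted p of 0.033.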
